A study of Mus musculus with 8 samples.

Results

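4T1 cells, a mouse mammary carcinoma line of BALB/c origin that serves as a model of triple-negative breast cancer (TNBC), were profiled by RNA sequencing after a combined intervention and after its double control. The combined group, shMCT-1 + anti-IL-6R, stably carried a short hairpin RNA (shRNA) against MCT-1 (gene Mcts1) and received an antibody against the mouse IL-6 receptor (clone 15A7, 100 ng/ml) for 48 h. The control group, scramble + IgG, carried a scramble shRNA and received an IgG2b κ antibody (clone LTF-2) for the same time. The libraries were chosen by their titles alone and number 4 of the 8 in the series, 2 in each group; the other 4 libraries, scramble + anti-IL-6R and shMCT-1 + IgG with 2 each, carry a single intervention and are used only to set the combined values beside the single steps. All groups shared RPMI-1640 medium with 10% serum and puromycin selection, so the selection was also present in control.

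The comparison has limits as a model. Only 1 shRNA against MCT-1 and 1 scramble line are named, and whether each line is a pool or a clone is not given in the sources used here, so the knockdown and any other difference between the lines cannot be told apart. The labels do not say that replicates came from separate cultures, and p-values therefore measure the spread between these libraries, which may be technical. The cells were grown without a host, so stromal and immune cells of a tumour were not part of the samples.

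MCT-1 forms a complex with DENR that acts on the small ribosomal subunit, where it promotes recycling after termination and allows translation to start again downstream of short upstream reading frames. IL-6 binds its receptor chain IL-6R (Il6ra), the pair engages the shared chain gp130 (Il6st), and gp130 signals through JAK kinases to the transcription factor STAT3. In mammary carcinoma this pathway is known for its part in inflammation, mesenchymal transition and stem-like growth. An antibody against the receptor acts on the protein, and mRNA counts do not measure that block.

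The shRNA target is shown because it defines the knockdown, with the matching stretch of the near-identical gene Mcts2 for comparison. The target of 21 bases was found without mismatch in 3 transcripts of 1 gene, Mcts1, among 141767 annotated mouse transcripts. In the transcript Mcts1-201 it lay in coding sequence, in exon 3, at chrX:38602593-38602613 (GRCm38, plus strand). The counterpart in Mcts2 differed by the substitutions A11C and T14C, counted from the 5′ end of the target, and capitals mark these positions.
Mcts1: tccttacagtAaaTggagaat
Mcts2: tccttacagtCaaCggagaat
The scramble sequence matched 0 annotated transcripts on either strand.

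Levels are given as CPM, counts scaled to a library of 1000000 counts, after TMM scaling (trimmed mean of M-values), in the order replicate 1 and replicate 2. Mcts1 stood at 15 and 11.8 CPM in control and at 6.84 and 4.97 CPM in the combined group, a log2 fold change of -1.19 ± 0.18 (SE, adjusted p = 0.00037, edgeR quasi-likelihood test with Benjamini-Hochberg adjustment over all genes tested, as for every adjusted p that follows). Mcts2 stood at 29 and 26.2 CPM in control and at 11.6 and 12.4 CPM in the combined group (log2 fold change -1.20 ± 0.11, adjusted p = 2.67e-05). Both genes were lower without overlap of the libraries, but because reads that fit both copies had to be divided by estimation, their separate levels are uncertain. Denr, which encodes the partner of MCT-1, was higher, from 93.5 and 120 to 195 and 175 CPM (log2 fold change 0.79 ± 0.12, adjusted p = 0.000359). Eif1, a start-codon selection factor, was higher as well, at 377 and 265 against 579 and 509 CPM (0.76 ± 0.14, adjusted p = 0.00157; 0.49 after a correction for transcript length and GC content), and so was Eif2d, a single-chain relative of the MCT-1-DENR complex, at 41.6 and 38.3 against 65.5 and 62.1 CPM (0.68 ± 0.09, adjusted p = 0.000159). Of 17 genes of MCT-1 and reinitiation, 6 were higher and 6 lower, and 10 and 4 after that correction.

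The combined group differed from control in a large share of the transcriptome, and the smaller changes count for little on their own. A gene was tested where it passed 1 CPM in at least 2 of the 4 libraries, which left 12257 of 54532 genes. Of these, 7010 (57.2%) passed an adjusted p of 0.05, with 3489 higher (28.5%) and 3521 lower (28.7%). Past 2-fold the count was 1882 (15.4%), with 785 higher (6.4%) and 1097 lower (8.95%), and 568 genes passed 4-fold. The median absolute log2 fold change was 0.412 and the median SE 0.123. In 9370 genes (76.4%) the libraries of the groups did not overlap, 4711 higher (38.4%) and 4659 lower (38%). The median over all tested genes was 0.00289, a value that TMM scaling centres. Higher and lower are therefore relative to the tested genes as a whole, and a change of all genes together would not be seen. For gene lists, the shares to read against are 28.5% higher and 28.7% lower. A gene that passed the filter through 1 group alone had its direction fixed in advance.

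**Figure D1:**
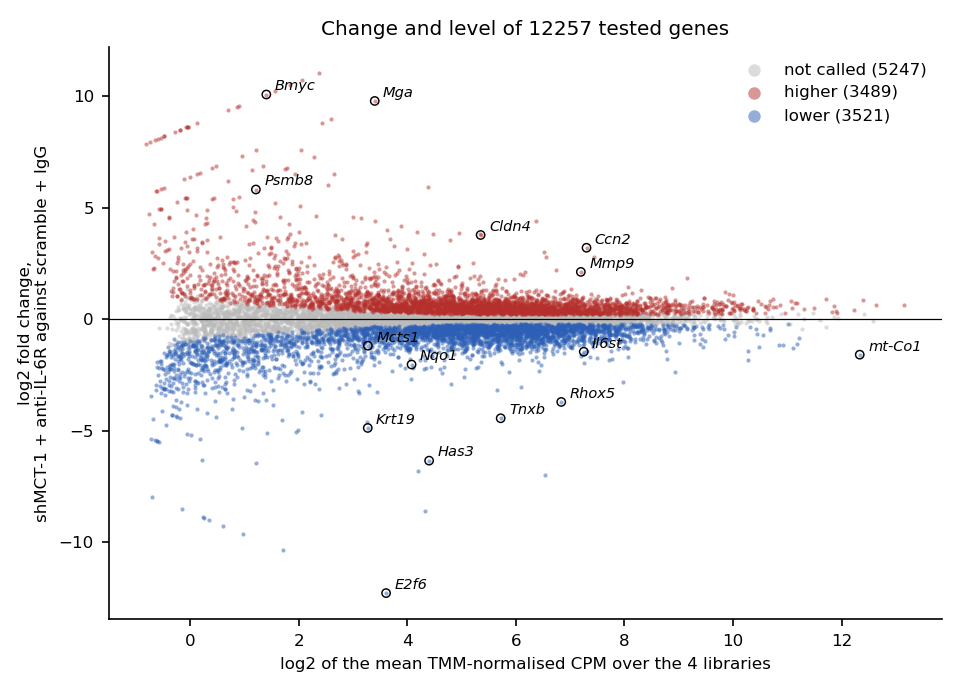
Log2 fold change of shMCT-1 + anti-IL-6R over scramble + IgG (vertical axis) against the log2 mean CPM of the 4 libraries (horizontal axis), 1 point per gene, with 3489 genes called higher in red, 3521 called lower in blue and 5247 not called in grey. Called genes lie on both sides at all levels, and the points of genes with 0 counts in a group, such as E2f6 and Bmyc, sit at fitted values that depend on the prior count.

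The single steps of the design are set beside the combined comparison here; they share the control or the combined libraries with it. shMCT-1 alone against the same control called 6787 genes (55.4%). Anti-IL-6R alone called 0 genes in the quasi-likelihood test (0%), 0 in DESeq2 and 8 in edgeR's exact test, with 155 at an unadjusted p under 0.05. Anti-IL-6R added to shMCT-1 called 0 genes in the quasi-likelihood test (0%), 8 in DESeq2 and 13 in the exact test, with 471 at an unadjusted p under 0.05. The study, also with edgeR but with its own filter, reported more genes for each antibody step than the exact test called here. The source of that difference was not tested. The departure from additivity of the 2 interventions called 0 genes (0%), 5 in DESeq2, with 302 at an unadjusted p under 0.05. By chance, 613 of 12257 genes would be expected under that p in each comparison, more than any of the unadjusted counts given here. Single steps are given below for some genes only, and where they are left out they can differ in size from the combined value.

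Library totals were 27527645 and 24100056 counts in control and 19839255 and 21964824 in the combined group, so 1 CPM was 19.8 to 33.1 counts over the 8 libraries. Of the defining markers of other cell types, Adgre1, Cd3e and Lum had 0 counts in all 8 libraries. The summed level of 8 macrophage and leukocyte markers was 18.3 to 21.4 CPM in control and 23 to 27.5 CPM in the combined group, nearly all from Cd14 and Cd68, and Cd68, a lysosomal macrophage marker, rose from 3.27 and 3.31 to 7.66 and 5.47 CPM (log2 fold change 0.99 ± 0.20, adjusted p = 0.00236) while Ptprc, the pan-leukocyte CD45, totalled 17 counts over the 8 libraries. The 6 fibroblast markers summed to 15.3 to 15.4 and 11.1 to 14.9 CPM, nearly all from Pdgfra, the 5 endothelial markers to 0.177 to 0.331 and 0.566 to 1.93 CPM, and the 6 epithelial markers to 2339 to 2404 and 3106 to 3400 CPM. Epithelial markers were thus present in every library, as the label of a carcinoma line implies.

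The receptor side of the IL-6 pathway was lower in the combined group. Il6st (gp130; chr13:112464070-112510086) stood at 218 and 229 CPM in control and at 68.8 and 93.4 CPM in the combined group (log2 fold change -1.46 ± 0.13, adjusted p = 1.89e-05). Il6ra (chr3:89864059-89913196) fell from 24.5 and 26 to 9.16 and 11.9 CPM (-1.26 ± 0.17, adjusted p = 0.000224). Osmr, the receptor chain for oncostatin M that also pairs with gp130, fell from 10.4 and 12.7 to 3.45 and 4.23 CPM (-1.58 ± 0.18, adjusted p = 8.98e-05). In a bulk sample, fewer cells that express a gene and less RNA per cell cannot be told apart. In libraries with a single intervention, Il6st was at 226 and 234 CPM in scramble + anti-IL-6R and at 81.6 and 79.8 CPM in shMCT-1 + IgG, which puts its lower level on the shMCT-1 side of the design.

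The kinase and target genes were less uniform. Jak1, a kinase bound to gp130, fell from 244 and 254 to 117 and 144 CPM (log2 fold change -0.93 ± 0.11, adjusted p = 9.01e-05), and Socs3, the feedback inhibitor induced by STAT3, fell from 27.2 and 21.9 to 16.3 and 14.9 CPM (-0.65 ± 0.12, adjusted p = 0.00142). Stat3 itself stood at 58.5 and 55.6 CPM in control and at 49.2 and 58.1 CPM in the combined group, where the libraries overlapped (-0.09 ± 0.11, adjusted p = 0.504). Jak1, Stat3 and Socs3 were picked after their values were seen. Over the 17 tested of 20 genes of the IL-6 family and JAK-STAT, 2 were higher and 8 lower, with a median log2 fold change of -0.21. Il6 itself was under the level tested, with 12 and 8 counts in the control libraries and 0 and 2 in the combined libraries.

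Transcript length moved with these values. In 10 length classes of equal size, the median log2 fold change went from 0.336 among the shortest transcripts to -0.496 among the longest, where 63.9% of genes were lower. Between the 2 combined replicates the same classes differed by 0.167 and -0.302, and between the 2 control replicates by 0.176 and -0.0496. With a correction for length and GC content, chosen after seeing the data, the log2 fold changes were -0.94 for Il6st, -0.81 for Il6ra and -1.30 for Osmr. The part of length in each result was not tested, and below, corrected values and chromosome-scaled values, from a fit scaled within each chromosome, follow a called value where they differ from it by over 1.5 times. The correction called 6629 genes, of which 5304 were shared with the 7010 and 50 of these had turned direction.

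Some genes were read in 1 group and close to absent in the other. In 14 genes each control library held at most 3 counts while the combined mean passed 5 CPM, and in 2 genes, E2f6 and Pet117, the reverse held. E2f6 (ENSMUSG00000057469, chr12:16810963-16839742), a transcriptional repressor that belongs to the variant polycomb complex PRC1.6, had 724 and 556 counts in control and 0 in both combined libraries, at least 167-fold lower against a floor of 3 counts per library. It also had 0 counts in both shMCT-1 + IgG libraries and 740 and 873 in scramble + anti-IL-6R. Pet117, an assembly factor of cytochrome oxidase, had 47 and 274 counts in control and 0 in both combined libraries, at least 44.5-fold lower, a bound carried by control replicate 2; from the level of control replicate 1 it is 11.4-fold.

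Mga (ENSMUSG00000033943, chr2:119897228-119969581), the DNA-binding scaffold of the same PRC1.6 complex and a MAX partner, went the other way. It had 1 and 0 counts in control and 333 and 543 in the combined group, a CPM ratio of 1110 with a counting interval of 199 to 44000. Bmyc (chr2:25706739-25707721), a short relative of Myc, had 0 counts in both control libraries and 113 and 103 in the combined libraries, at least 45.7-fold higher. Counting intervals and floors cover counting error only. In the other groups Mga had 0 and 0 counts in scramble + anti-IL-6R and 464 and 560 in shMCT-1 + IgG, so E2f6 and Mga each followed the shRNA line and not the antibody. Of the 15 PRC1.6 genes, 2 were higher and 3 lower, which is below the background shares. The flanking genes of E2f6 had log2 fold changes of -0.83 (Lpin1, or -0.47 chromosome-scaled) and -1.09 (Rock2, or -0.50 corrected), those of Mga -0.13 (Tyro3, adjusted p = 0.309) and -1.09 (Mapkbp1, or -0.70 chromosome-scaled), and those of Bmyc -0.55 (Fcna, adjusted p = 0.187) and -0.58 (Camsap1, or -0.21 corrected and -0.19, without a call, chromosome-scaled).

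The other genes gained from near absence included secreted and membrane proteins. Panx1, a channel that releases ATP, had 0 counts in both control libraries and 153 and 192 in the combined libraries (at least 72.4-fold higher). Dact2, a modulator of Wnt signalling, had 0 and 0 against 204 and 219 counts (at least 89.2-fold higher), and Fzd1, a Wnt receptor, had 2 and 0 against 101 and 105 counts (CPM ratio 131, counting interval 35.8 to 1090). Tspan12, a tetraspanin that works with Frizzled receptors, had 0 and 0 against 104 and 141 counts (at least 51.3-fold higher). These 3 genes of Wnt signalling were named by size of change, not from a list. Serpinb2, the plasminogen activator inhibitor PAI-2, had 1 and 2 against 112 and 164 counts (ratio 117, 39.6 to 570). Sema5a, a semaphorin, had 1 and 2 against 105 and 180 counts (ratio 121, 40.9 to 589), and Rnase4, a secreted ribonuclease, 1 and 1 against 156 and 179 (ratio 213, 58.5 to 1760). Chchd10, a mitochondrial protein, had 0 and 1 against 234 and 206 counts (ratio 559, 99.8 to 22100), Maged2 had 2 and 1 against 199 and 196 (ratio 167, 56.8 to 815), and Sgsm1 had 0 and 1 against 246 and 245 (ratio 624, 111 to 24700).

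Genes with large falls included regulators of growth signalling and matrix. Has3, a hyaluronan synthase, fell from 45.6 and 37.8 to 0.412 and 0.598 CPM (log2 fold change -6.34 ± 0.22, adjusted p = 8.88e-08). Tnxb, the matrix glycoprotein tenascin X, fell from 104 and 97.9 to 4.12 and 5.11 CPM (-4.44 ± 0.12, adjusted p = 5.16e-08, the smallest of all genes tested). Rhox5, a homeobox gene of the X-linked reproductive cluster, fell from 191 and 233 to 16.7 and 15.7 CPM (-3.71 ± 0.12, adjusted p = 6.68e-08). In every one of these genes all control libraries were far above all combined libraries. Fam83a, which acts in EGFR and RAS signalling, stood at 38.1 and 42.2 CPM in control and at 0 and 0.184 CPM in the combined group (-8.62 ± 0.33, adjusted p = 1.46e-07; -13.03 without combined replicate 2). Adcy3, an adenylyl cyclase, stood at 40.2 and 32.5 against 0.103 and 0.506 CPM (-6.83 ± 0.31, adjusted p = 3.63e-07). Gas7 (-5.11 ± 0.34), Hsd17b11 (-5.06 ± 0.27) and Btbd6 (-4.95 ± 0.33) were also among the largest falls, from control levels of 5 to 8.77 CPM to at most 0.309 CPM. Gm3448 (-4.60 ± 0.29) has close paralogs and its level is uncertain.

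**Figure D2:**
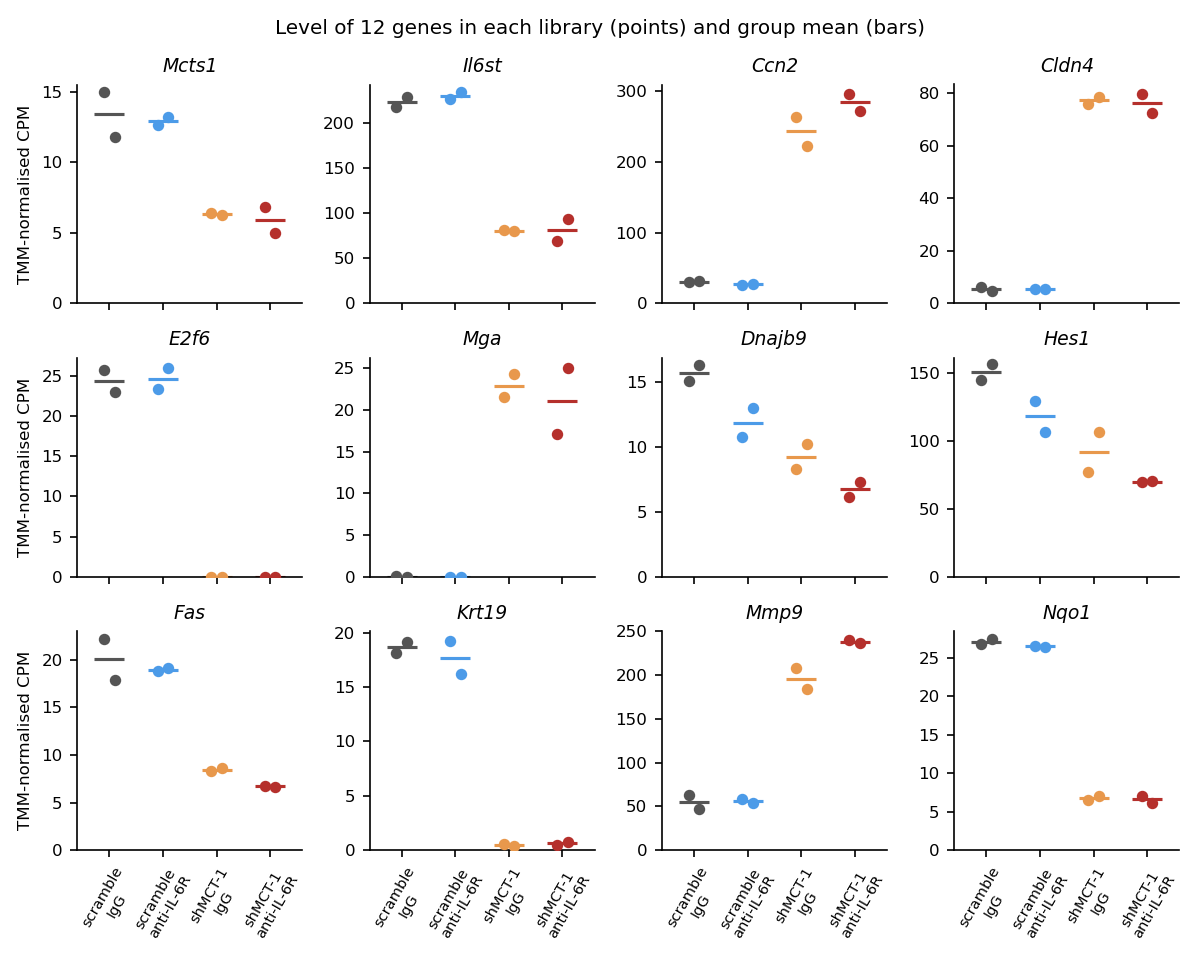
CPM of 12 genes (vertical axes, linear from 0) in the 8 libraries by group (horizontal axes), with points for libraries and bars for group means. Mga, Ccn2, Cldn4 and Mmp9 are high, and E2f6, Krt19, Nqo1, Il6st and Fas low, in both groups that carry shMCT-1, while Hes1 and Dnajb9 are lowest in the combined group.

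Genes that the study followed up by RT-PCR moved both ways against control. Hes1, Dnajb9 and Myc were taken up from this series, and their direction here is not independent evidence. The study reported lower Hes1 and Dnajb9. It reported higher MYC, by RT-PCR and in this series against scramble + anti-IL-6R, whereas Myc was lower here against scramble + IgG. Hes1, a Notch-responsive repressor, went from 145 and 157 CPM in control through 130 and 107 (anti-IL-6R alone) and 77.3 and 107 (shMCT-1 alone) to 69.7 and 70.3 CPM in the combined group (log2 fold change -1.10 ± 0.15, adjusted p = 0.000205). Dnajb9, an endoplasmic reticulum (ER) co-chaperone, went from 15 and 16.3 through 10.8 and 12.9 and 8.29 and 10.2 to 6.12 and 7.31 CPM (-1.22 ± 0.16, adjusted p = 0.000184). In both genes the 4 groups lay in the same order, but the neighbouring groups were close: the antibody step gave Hes1 -0.35 alone and -0.39 on top of shMCT-1, and Dnajb9 -0.40 and -0.46, each with an adjusted p of 1. Fas, the death receptor, fell from 22.2 and 17.9 to 6.74 and 6.67 CPM (-1.58 ± 0.13, adjusted p = 1.68e-05), with 8.29 and 8.61 CPM in shMCT-1 alone. Areg, an EGFR ligand, fell from 151 and 155 to 84.7 and 84.7 CPM (-0.86 ± 0.08, adjusted p = 3.24e-05), and Myc from 550 and 595 to 436 and 441 CPM (-0.38 ± 0.09, adjusted p = 0.00571, or -0.60 corrected). St6gal1, a sialyltransferase, rose from 13.6 and 14.1 to 24.6 and 31.6 CPM (1.02 ± 0.13, adjusted p = 0.000162). Serpina3i, a serine protease inhibitor of a cluster of close paralogs, had 1 and 0 counts in control and 28 and 28 in the combined group (CPM ratio 71.2, counting interval 12.3 to 2860). In shMCT-1 + IgG, Areg stood at 90.4 and 82.1 CPM and Serpina3i had 31 and 36 counts. In shMCT-1 tumours, the study's RT-PCR found Fas, Areg, St6gal and Serpina3 all reduced. St6gal1 and Serpina3i went the other way in these cultured cells.

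PD-L1 (Cd274), the checkpoint ligand of the axis in the study's title, and CXCL7 (Ppbp) with its receptor Cxcr2 were at the edge of detection. Cd274 had 6 and 9 counts in control and 15 and 30 in the combined group, or 0.213 and 0.373 against 0.772 and 1.38 CPM, and was not tested. It stood at 0.316 and 0.326 CPM in scramble + anti-IL-6R and at 1.02 and 1.13 CPM in shMCT-1 + IgG. Each shMCT-1 library thus lay above each scramble library, at 30 counts or fewer. The study reported lower PD-L1 with shMCT-1, by microarray and as protein. Ppbp had 13 and 11 counts in control and 9 and 18 in the combined group, and Cxcr2 had 11 and 3 counts against 0 and 9. A difference in Ppbp or Cxcr2 was not detectable at this depth.

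Epithelial genes split, with the largest rises among cell-surface proteins. Cldn4, a tight-junction claudin, rose from 6.21 and 4.84 to 79.5 and 72.5 CPM (log2 fold change 3.77 ± 0.12, adjusted p = 6.68e-08), and Epcam, the epithelial adhesion molecule, from 4.61 and 4.06 to 51.5 and 50 CPM (3.54 ± 0.14, adjusted p = 1.67e-07). Marveld2 (tricellulin) rose from 5.36 and 5.05 to 13.4 and 18 CPM (1.596 ± 0.16, adjusted p = 4.05e-05). Dsp, the desmosomal plaque protein desmoplakin, fell from 354 and 407 to 135 and 180 CPM (-1.27 ± 0.13, adjusted p = 5.43e-05, or -0.80 corrected, -0.85 chromosome-scaled). Cdh1 (E-cadherin) overlapped between the groups, at 284 and 314 against 250 and 308 CPM (-0.10 ± 0.11, adjusted p = 0.456). Over 16 tested of 22 junction genes, 6 were higher and 5 lower. Cldn4 and Epcam had much the same level in shMCT-1 + IgG, at 76 and 78.5 and at 55.1 and 51.5 CPM.

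Among 8 tested of 17 mammary keratins and lineage regulators, 5 were higher and 1 lower, with a median log2 fold change of 0.45 that fell to 0.11 with the correction. Krt7 rose from 342 and 352 to 662 and 596 CPM (log2 fold change 0.86 ± 0.09, adjusted p = 4.49e-05) and the basal keratin Krt14 from 60.7 and 61.1 to 101 and 94 CPM (0.68 ± 0.08, adjusted p = 0.000108, or 0.33 corrected). Krt19, a luminal keratin, was the member that fell, from 18.1 and 19.2 to 0.463 and 0.782 CPM (-4.88 ± 0.23, adjusted p = 4.69e-07). The list held genes that moved far apart, and a single direction does not describe it. Mesenchymal genes also moved both ways, with 4 of 11 tested higher and 2 lower. Vim (vimentin) rose from 1575 and 1368 to 2286 and 2233 CPM (0.62 ± 0.10, adjusted p = 0.000527, or 1.01 chromosome-scaled) and Lgals1 from 4255 and 3384 to 7192 and 6686 CPM (0.86 ± 0.12, adjusted p = 0.000259, or 0.47 corrected), while Zeb2, a repressor of epithelial genes, fell from 48.1 and 57.3 to 19.8 and 32.9 CPM (-0.995 ± 0.19, adjusted p = 0.00153, or -0.30 corrected, -0.60 chromosome-scaled).

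Markers used for breast cancer stem-like cells were lower in 5 of 9 tested and higher in 1, with a median log2 fold change of -0.31; with chromosome scaling 4 were lower and 2 higher, and the median turned to 0.08. Klf4, a pluripotency factor, fell from 24 and 27 to 8.9 and 11.3 CPM (log2 fold change -1.33 ± 0.13, adjusted p = 4.36e-05). Itga6, the α6 integrin, fell from 363 and 365 to 158 and 210 CPM (-0.98 ± 0.12, adjusted p = 0.000131, or -0.59 chromosome-scaled), and Bmi1, a polycomb protein, from 84.6 and 101 to 53.8 and 61.8 CPM (-0.68 ± 0.11, adjusted p = 0.000552, or -0.41 corrected, -0.29 chromosome-scaled). Cd24a, whose low level marks the CD44+CD24- phenotype, was the member that rose, from 141 and 150 to 262 and 265 CPM (0.86 ± 0.08, adjusted p = 2.71e-05). Epcam, which the study also used as a stemness marker, was not in this list and rose (3.54 ± 0.14). Nanog and Sox2 had 0 counts in all 4 libraries.

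Matrix proteases and their inhibitors had the highest median of the lists described, 0.70 on the log2 scale, with 12 of 18 tested higher and 5 lower. Mmp9, a gelatinase, rose from 63.3 and 46.4 to 240 and 236 CPM (log2 fold change 2.12 ± 0.14, adjusted p = 3.56e-06). Mmp10, a stromelysin, rose from 4.3 and 2.53 to 13.4 and 11.5 CPM (1.85 ± 0.24, adjusted p = 0.000165), and the related stromelysin Mmp3 fell from 23.5 and 14.8 to 5.97 and 7.18 CPM (-1.54 ± 0.21, adjusted p = 0.000221). Serpinb5 (maspin), an inhibitor named for its loss in mammary carcinoma, rose from 1.77 and 2.15 to 25.7 and 21.3 CPM (3.58 ± 0.17, adjusted p = 4.69e-07). Proteases and inhibitors both stood among the rises, and with the length and GC correction 12 were higher and 4 lower. In the structural matrix list, 13 of 22 tested genes were higher and 6 lower (median 0.51). Sdc3, a syndecan proteoglycan, rose from 3.87 and 4.1 to 57.7 and 58.1 CPM (3.86 ± 0.12, adjusted p = 6.68e-08).

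Integrin subunits, the receptors of that matrix, were higher in 5 and lower in 3 of 10 tested, and lower in 2 under either the correction or chromosome scaling. Itgb6 rose from 2.48 and 2.98 to 8.59 and 8.88 CPM (log2 fold change 1.68 ± 0.17, adjusted p = 4.35e-05) and Itgb3 from 3.09 and 3.27 to 6.07 and 7.08 CPM (1.05 ± 0.19, adjusted p = 0.00135). Their shared partner Itgav fell from 192 and 201 to 83.8 and 120 CPM (-0.95 ± 0.14, adjusted p = 0.000353, or -0.47 corrected, -0.56 chromosome-scaled), and the collagen receptor subunit Itga2 from 268 and 302 to 103 and 152 CPM (-1.16 ± 0.16, adjusted p = 0.00022, or -0.68 corrected, -0.73 chromosome-scaled). The β subunits named here were higher and the α subunits lower.

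The clearest rises among targets of YAP and TEAD, the transcription factors of the Hippo pathway, were in 4 classical target genes. Ccn2 (connective tissue growth factor; chr10:24595442-24598683) rose from 30.8 and 31 to 296 and 273 CPM (log2 fold change 3.20 ± 0.11, adjusted p = 6.68e-08), and Ccn1, its relative, from 274 and 240 to 701 and 657 CPM (1.40 ± 0.10, adjusted p = 6.1e-06). Ankrd1, a nuclear ankyrin protein, rose from 19.7 and 20.7 to 57.5 and 61.3 CPM (1.56 ± 0.09, adjusted p = 1.61e-06), and Nuak2, a kinase, from 11 and 9.94 to 22.3 and 22.4 CPM (1.09 ± 0.11, adjusted p = 3.91e-05). Over all 14 genes of the YAP and TEAD list, however, 5 were higher and 6 lower, with a median of 0.06 on the log2 scale, and 6 were higher and 4 lower after the correction. Yap1 itself stood at 134 and 133 against 130 and 140 CPM (0.01 ± 0.08, adjusted p = 0.918), but was called after the correction (0.29, adjusted p = 0.00396).

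The promoters of Ccn1 and Ankrd1 are shown because these members rose together, with the letters of the TEAD motif GGAATG, searched on both strands, in capitals. Each run is the 250 bases upstream of the annotated start (RefSeq, GRCm38.p6), from the minus strand, at chr3:145649986-145650235 for Ccn1 and chr19:36119845-36120094 for Ankrd1.
Ccn1: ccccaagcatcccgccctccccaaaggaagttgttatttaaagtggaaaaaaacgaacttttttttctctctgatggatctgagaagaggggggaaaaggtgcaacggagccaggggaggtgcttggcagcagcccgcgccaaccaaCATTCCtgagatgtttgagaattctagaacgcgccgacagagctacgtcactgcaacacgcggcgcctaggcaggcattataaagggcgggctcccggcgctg
Ankrd1: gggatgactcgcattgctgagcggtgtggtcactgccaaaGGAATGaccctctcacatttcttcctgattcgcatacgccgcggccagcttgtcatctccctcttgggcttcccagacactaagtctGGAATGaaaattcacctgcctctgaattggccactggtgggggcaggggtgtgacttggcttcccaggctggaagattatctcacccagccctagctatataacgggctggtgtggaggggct
The motif occurred once in Ccn1, on the opposite strand as CATTCC, from 103 to 98 bases before the start. In Ankrd1 it occurred at 210 to 205 and at 123 to 118 bases before the start. Of 27025 genes with a promoter in the table, 14.4% held the motif in a promoter of the same length, as did 8 of the 10 genes of the YAP and TEAD list that matched the table. Those 8 include Yap1, which was not called. Only 5 genes of the whole list were higher, and of these Ccn2 and Nuak2 were not among the 10. Most of the 8 genes with the motif therefore did not rise, and the promoters shown were picked for their rise. A match is a description of letters and not a measured binding site.

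Immune-facing genes of the tumour cell moved in groups. Of 16 tested of 17 genes of MHC class I presentation, 13 were higher and 2 lower, with a median log2 fold change of 0.60. Psmb8, a subunit of the immunoproteasome, stood at 0.142 and 0 CPM in control and at 4.63 and 4.46 CPM in the combined group (5.81 ± 0.51, adjusted p = 2.12e-05; 9.83 without control replicate 1). Tap1, the peptide transporter, rose from 3.02 and 2.86 to 5.61 and 4.88 CPM (0.83 ± 0.20, adjusted p = 0.00566), Nlrc5, the class I transactivator, from 2.8 and 2.36 to 4.32 and 6.62 CPM (1.08 ± 0.24, adjusted p = 0.00352), and B2m, the shared light chain, from 213 and 238 to 314 and 298 CPM (0.44 ± 0.09, adjusted p = 0.00242, or 0.83 chromosome-scaled). These members span the peptide-cutting, transport and display steps. With the length and GC correction, 11 were higher and 1 lower, with a median of 0.42.

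Interferon-stimulated genes were higher in 9 of 18 tested and lower in 2, with the named members at low levels. The list median was 0.344, with 0.532 for shMCT-1 alone and -0.189 for the antibody added to shMCT-1. The study's microarray, by gene set enrichment, reported interferon responses suppressed by shMCT-1. The platform and the measure differ, and the source of the difference was not tested. Oas1a, a sensor of double-stranded RNA, rose from 0.142 and 0.166 to 4.37 and 4.51 CPM (log2 fold change 4.82 ± 0.32, adjusted p = 4.27e-06) and its relative Oasl1 from 1.14 and 0.621 to 5.35 and 6.58 CPM (2.74 ± 0.29, adjusted p = 5.78e-05). Bst2 (tetherin) rose from 4.93 and 3.02 to 22.9 and 17.9 CPM (2.34 ± 0.21, adjusted p = 2.16e-05). Isg15, a ubiquitin-like protein, stood at 0.426 and 0.497 CPM in control and at 2.11 and 3.04 CPM in the combined group (2.48 ± 0.32, adjusted p = 0.000165), with 4.45 and 4.63 CPM in shMCT-1 + IgG. The antibody step on top of shMCT-1 gave Isg15 a log2 fold change of -0.81 ± 0.25, with an adjusted p of 1. Among 6 tested of 13 checkpoint ligands, 3 were higher and 1 lower. The largest change was the fall of Vsir (VISTA), from 1.28 and 1.28 to 0.0514 and 0.23 CPM (-3.10 ± 0.61, adjusted p = 0.00195). Lgals9 (galectin-9) rose from 4.33 and 3.89 to 16.3 and 12.9 CPM (1.82 ± 0.16, adjusted p = 1.7e-05), and Nectin2, a ligand of TIGIT and PVRIG, from 15.1 and 13.7 to 34.1 and 29.5 CPM (1.15 ± 0.12, adjusted p = 4.92e-05).

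Chemokines and cytokines gave no common direction, with 4 of 11 tested chemokines and colony-stimulating factors higher and 3 lower, and 5 of 11 tested interleukins and inflammatory cytokines higher and 3 lower; of the latter list 2 were higher and 3 lower after the correction. Cxcl5, a neutrophil attractant, fell from 293 and 262 to 75.2 and 89.8 CPM (log2 fold change -1.75 ± 0.11, adjusted p = 2.3e-06), its relative Cxcl1 from 263 and 317 to 186 and 183 CPM (-0.65 ± 0.14, adjusted p = 0.00306), and Ccl20, an attractant of CCR6-bearing lymphocytes, from 6.11 and 7.37 to 1.39 and 2.39 CPM (-1.82 ± 0.25, adjusted p = 0.000238). Ccl5, an attractant of T cells, rose from 2.84 and 1.49 to 4.84 and 6.21 CPM (1.34 ± 0.32, adjusted p = 0.00497). The 3 named chemokines that fell are ligands of CXCR2 or CCR6. Il1a rose from 6.5 and 6.83 to 36 and 35.9 CPM (2.43 ± 0.10, adjusted p = 2.56e-07), and Tslp, an epithelial cytokine, fell from 7.77 and 6.42 to 1.49 and 1.29 CPM (-2.35 ± 0.22, adjusted p = 2.78e-05). Of 17 tested genes of NF-κB and TBK1, 1 was higher and 8 lower. Vcam1, an adhesion molecule known as an NF-κB target and scored in that list, was the member that rose, from 4.54 and 4.84 to 33.9 and 36.2 CPM (2.90 ± 0.11, adjusted p = 1.46e-07).

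**Figure D3:**
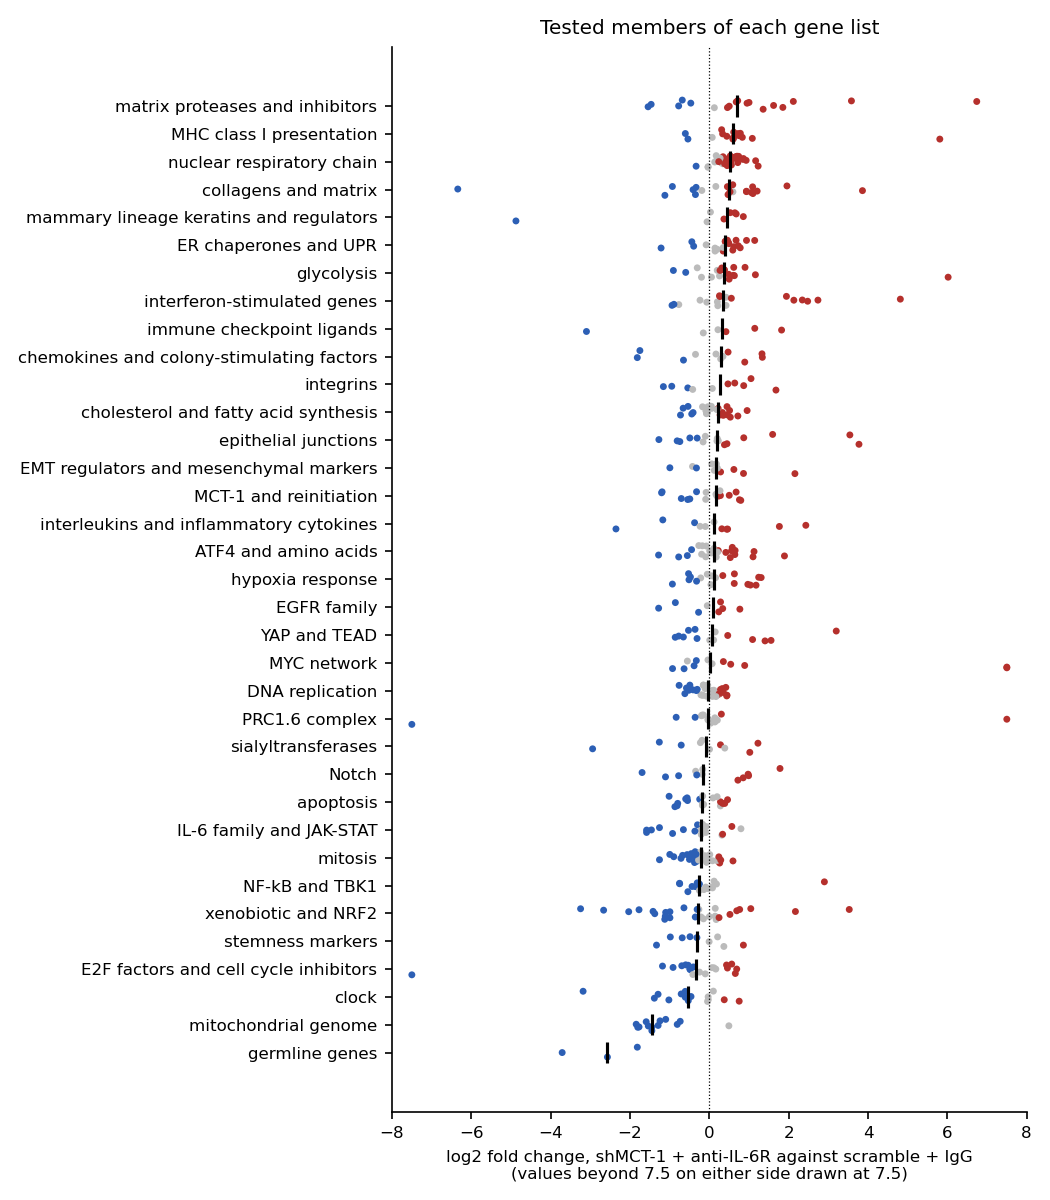
Log2 fold change of shMCT-1 + anti-IL-6R over scramble + IgG (horizontal axis) for each tested gene of 35 lists (vertical axis), with red for called higher, blue for called lower, grey for not called and a black tick for the list median; values beyond 7.5 are drawn at 7.5. Medians run from 0.696 in the matrix proteases to -1.45 in the mitochondrial genome and -2.57 in the 3 tested germline genes, and most lists hold red and blue points together.

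The respiratory chain split by genome. Of the 34 nuclear genes of the chain, all tested, 26 were higher and 1 lower, with a median log2 fold change of 0.53, whereas of the 13 protein-coding genes of the mitochondrial genome 0 were higher and 12 lower, with a median of -1.45. The nuclear genes include Ndufa4, a cytochrome oxidase subunit, which rose from 81 and 58.1 to 173 and 154 CPM (1.23 ± 0.15, adjusted p = 0.000113), Cox7a2, which rose from 44.9 and 34 to 96 and 81.5 CPM (1.17 ± 0.14, adjusted p = 9.97e-05), and Ndufs7 of complex I, which rose from 46.4 and 33.8 to 82.9 and 70 CPM (0.93 ± 0.14, adjusted p = 0.000413, or 0.53 corrected). These transcripts are short, with a median of 1428 bases against 3247 over the genes tested, and after the length and GC correction 20 were higher and 2 lower, with a median of 0.33.

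The mitochondrially encoded genes were lowest in the combined group. Mt-Co1 (gene mt-Co1), the catalytic subunit of cytochrome oxidase, stood at 7025 and 8502 CPM in control, 7004 and 7864 in scramble + anti-IL-6R, 3366 and 4799 in shMCT-1 + IgG, and 2524 and 2626 in the combined group (log2 fold change -1.59 ± 0.16, adjusted p = 5.25e-05). The complex I gene mt-Nd5 stood at 1695 and 2191, 1612 and 1862, 734 and 890, and 497 and 585 CPM in the same order (-1.84 ± 0.15, adjusted p = 1.49e-05). For mt-Co3 the values were 348 and 326, 380 and 417, 208 and 276, and 118 and 79.3 CPM (-1.77 ± 0.18, adjusted p = 5.14e-05). In these 3 genes the combined libraries lay below every library of the other groups. As a list, the median was -0.683 for shMCT-1 alone, -0.153 for anti-IL-6R alone and -0.623 for the antibody added to shMCT-1, but each gene's antibody step missed the threshold, with the smallest adjusted p of the step at 0.209, that of mt-Co3 (-1.30 ± 0.18). The exception to the direction was mt-Nd3, at 60.1 and 32.8 against 100 and 31 CPM (0.49 ± 0.43, adjusted p = 0.356), whose combined replicates lay above and below both control libraries; without combined replicate 1 its log2 fold change was -0.59.

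Mitochondrial reads made up 2.07% and 2.52% of counts in control, 1.97% and 2.27% in scramble + anti-IL-6R, 1.13% and 1.53% in shMCT-1 + IgG, and 0.847% and 0.84% in the combined group. This share moves with RNA selection and quality as well as with transcript level, and the part of each was not tested. With the length and GC correction, 10 of the 13 genes were lower and 0 higher, with a median of -0.94.

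**Figure D4:**
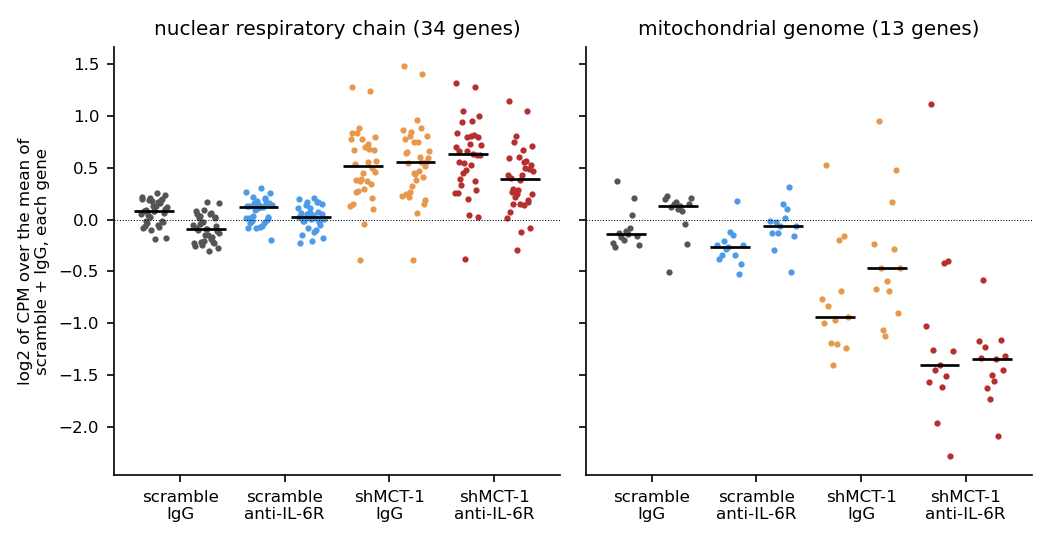
Log2 ratio of CPM to the mean of the scramble + IgG libraries (vertical axis) for 34 nuclear and 13 mitochondrially encoded respiratory chain genes in each of the 8 libraries (horizontal axis), with points for genes and bars for medians. The nuclear genes shift up in the 4 shMCT-1 libraries and the mitochondrially encoded genes shift down there, furthest in the 2 combined libraries.

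Glycolytic genes were higher in 12 of 19 tested and lower in 2. Ldha, lactate dehydrogenase A, rose from 1299 and 1069 to 2390 and 2030 CPM (log2 fold change 0.90 ± 0.12, adjusted p = 0.00019), and Pfkm, a phosphofructokinase, from 12.8 and 11.4 to 27.1 and 27.2 CPM (1.16 ± 0.10, adjusted p = 2.16e-05). Pdk1, the kinase that restrains pyruvate entry into mitochondria, fell from 87.6 and 84.9 to 44.9 and 47.1 CPM (-0.91 ± 0.08, adjusted p = 2.19e-05, or -0.52 chromosome-scaled), and Hif1a, the hypoxia factor, from 242 and 279 to 113 and 160 CPM (-0.93 ± 0.14, adjusted p = 0.000454, or -0.60 corrected, -0.58 chromosome-scaled). The enzymes named and these regulators did not share a direction. In the hypoxia list, 8 of 18 tested genes were higher and 5 lower. Of 26 genes of cholesterol and fatty acid synthesis, 13 were higher and 5 lower (8 and 4 chromosome-scaled); the regulator Srebf1 rose from 66.1 and 55.8 to 124 and 112 CPM (0.95 ± 0.10, adjusted p = 5.77e-05).

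Genes of xenobiotic metabolism and of the antioxidant factor NRF2 were lower in 14 of 28 tested and higher in 7. Nfe2l2, which encodes NRF2, fell from 113 and 138 to 56.7 and 59.4 CPM (log2 fold change -1.11 ± 0.10, adjusted p = 2.78e-05, or -0.72 chromosome-scaled). Its classical targets Nqo1, a quinone reductase, fell from 26.8 and 27.4 to 7.1 and 6.16 CPM (-2.03 ± 0.11, adjusted p = 1.49e-06), Slc7a11, the cystine transporter, from 55.8 and 54.5 to 15.7 and 16.6 CPM (-1.77 ± 0.09, adjusted p = 1.05e-06, or -1.06 corrected), and Srxn1, sulfiredoxin, from 107 and 102 to 54.8 and 50 CPM (-0.99 ± 0.09, adjusted p = 2.06e-05, or -0.60 chromosome-scaled); these 3 targets were picked after their values were seen. Cyp1b1, an oxygenase induced through the aryl hydrocarbon receptor, fell from 17.2 and 22 to 1.8 and 2.3 CPM (-3.25 ± 0.19, adjusted p = 2.05e-06), and Aldh3a1, another inducible enzyme, from 26.7 and 31.4 to 4.73 and 4.42 CPM (adjusted p = 1.18e-06). The list was not uniform: Ephx1, microsomal epoxide hydrolase, rose from 0.142 and 0.248 to 2.37 and 2.16 CPM (3.53 ± 0.37, adjusted p = 5.47e-05).

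The promoter of Cyp1b1 is shown for the core of the xenobiotic response element, GCGTG, on either strand (chr17:79715062-79715311, minus strand, 250 bases before the start, RefSeq, GRCm38.p6), with the match in capitals.
Cyp1b1: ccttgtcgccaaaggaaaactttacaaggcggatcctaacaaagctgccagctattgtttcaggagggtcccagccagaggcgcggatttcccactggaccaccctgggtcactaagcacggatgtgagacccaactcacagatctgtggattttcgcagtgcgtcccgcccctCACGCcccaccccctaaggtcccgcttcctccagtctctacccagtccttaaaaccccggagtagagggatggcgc
The match was on the opposite strand, as CACGC, 76 to 72 bases before the start. Of the 27025 genes with a promoter, 30.9% held these letters, as did 13 of the 24 list genes that matched the promoter table; the promoters of Nqo1, Slc7a11 and Ephx1 did not.

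In the ER, chaperones and genes of the unfolded protein response (UPR) were higher in 13 of 21 and lower in 3. Hspa5 (BiP), the main chaperone of the ER, rose from 1815 and 1817 to 2501 and 2564 CPM (log2 fold change 0.48 ± 0.08, adjusted p = 0.00095, or 0.87 chromosome-scaled). Manf, a secreted UPR factor, rose from 106 and 99.1 to 202 and 190 CPM (0.94 ± 0.08, adjusted p = 2.06e-05), Sdf2l1, a co-chaperone of BiP, from 5 and 5.26 to 12.4 and 10.3 CPM (1.14 ± 0.15, adjusted p = 0.000161, or 0.75 corrected), and Xbp1, the UPR factor, from 28.5 and 27.7 to 51.4 and 45 CPM (0.78 ± 0.09, adjusted p = 0.00011). Dnajb9, described above, is a member of the same list and went the other way. Of 27 genes of ATF4 and amino acid supply, 11 were higher and 4 lower, and 10 and 7 after the correction. Asns, asparagine synthetase, rose from 163 and 152 to 364 and 310 CPM (1.10 ± 0.10, adjusted p = 2.12e-05) and Stc2, a stress-induced glycoprotein, from 4.26 and 4.51 to 17 and 15.6 CPM (1.89 ± 0.13, adjusted p = 5.41e-06), while Cebpb, the ATF4-partner factor, fell from 363 and 382 to 165 and 142 CPM (-1.28 ± 0.10, adjusted p = 1.34e-05).

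Mitosis genes were lower in 14 of 31 and higher in 5, and genes of DNA replication were below the background shares in each direction, with 8 of 36 higher and 8 lower. Mki67, the proliferation marker Ki-67, fell from 867 and 1104 to 315 and 509 CPM (log2 fold change -1.26 ± 0.20, adjusted p = 0.000631), a gap that shrank to -0.65 after the length and GC correction. Anln, a cytokinesis scaffold, fell from 500 and 496 to 214 and 285 CPM (-0.997 ± 0.12, adjusted p = 0.000119), and Cdk6, a G1 kinase, from 353 and 365 to 142 and 174 CPM (-1.18 ± 0.10, adjusted p = 1.99e-05, or -0.44 corrected). With the correction, 11 genes of the mitosis list were lower and 6 higher. Of 20 tested E2F factors and cell cycle inhibitors, 9 were lower and 5 higher; E2f3 fell from 61.8 and 61.8 to 37.6 and 38.8 CPM (-0.69 ± 0.08, adjusted p = 0.000109, or -0.27 chromosome-scaled) and Rbl1 (p107), a pocket protein, from 71.5 and 75.6 to 36.2 and 41.8 CPM (-0.91 ± 0.09, adjusted p = 5.23e-05, or -0.59 corrected, -0.52 chromosome-scaled).

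Apoptosis genes on both sides of the balance were lower, 8 of 19 tested, with 4 higher (9 and 2 chromosome-scaled). The pro-apoptotic Bcl2l11 (BIM) fell from 58.8 and 49.4 to 26.2 and 27.4 CPM (log2 fold change -1.01 ± 0.11, adjusted p = 7.73e-05, or -0.62 chromosome-scaled), and the anti-apoptotic Bcl2l1 (BCL-XL) from 131 and 124 to 68.9 and 70.3 CPM (-0.87 ± 0.09, adjusted p = 3.82e-05, or -0.48 chromosome-scaled). Ripk1, the kinase downstream of death receptors, fell from 53 and 60.2 to 32.3 and 32.1 CPM (-0.81 ± 0.09, adjusted p = 9.53e-05, or -0.41 corrected, -0.38 chromosome-scaled). In the circadian clock list 9 of 15 tested genes were lower and 2 higher. Bhlhe41 (DEC2), a repressor of the clock, fell from 89.6 and 91 to 9.41 and 10.4 CPM (-3.18 ± 0.10, adjusted p = 6.68e-08), and Clock from 96.8 and 99.2 to 30.8 and 44.1 CPM (-1.39 ± 0.14, adjusted p = 5.03e-05, or -0.66 corrected). After the correction 10 clock genes were lower and 1 higher.

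Several signalling lists gave no common direction, among them Notch, with 5 of 12 tested higher and 4 lower, EGFR ligands and receptors, with 4 of 8 higher and 3 lower (3 and 2 chromosome-scaled), and the MYC network, with 5 of 12 higher and 4 lower. Notch1, a receptor, fell from 55.6 and 49.2 to 14.1 and 18.1 CPM (log2 fold change -1.70 ± 0.13, adjusted p = 9.26e-06), and Dll4, a ligand, rose from 2.17 and 1.37 to 5.35 and 6.9 CPM (1.78 ± 0.25, adjusted p = 0.00026). Btc, an EGFR ligand, stood at 7.92 and 7.33 CPM in control, 6.69 and 7.33 in scramble + anti-IL-6R, 5.23 and 5.06 in shMCT-1 + IgG, and 2.57 and 3.68 CPM in the combined group (-1.28 ± 0.19, adjusted p = 0.000415), so that its combined libraries were below all others. The antibody step on top of shMCT-1 gave Btc -0.71 ± 0.20, with an adjusted p of 1. Among 10 tested sialyltransferases 3 were higher and 3 lower (2 and 5 corrected); St3gal1 fell from 84.3 and 73.8 to 29.9 and 36 CPM (-1.26 ± 0.11, adjusted p = 1.84e-05), opposite to St6gal1. Of 22 germline genes, often silenced through PRC1.6, only 3 reached the level tested, and all 3 were lower. Zcwpw1, a histone reader of meiosis, fell from 98.3 and 108 to 28.7 and 29.9 CPM (-1.82 ± 0.10, adjusted p = 1.16e-06), and Sycp1, of the synaptonemal complex, from 2.52 and 2.44 to 0.514 and 0.322 CPM (-2.57 ± 0.40, adjusted p = 0.000474). Sycp1 reached the level tested through the control libraries alone, so the filter fixed its direction. The untested members give no direction here.

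No gene departed from additivity past the threshold in the quasi-likelihood test. Among genes with a mean of at least 5 CPM in some group, the 6 with the smallest unadjusted p are given as values. The smallest was that of Srp54b, a subunit of the signal recognition particle with close paralogs and so of uncertain level, at 14 and 12.2 CPM in control, 15.7 and 15 in scramble + anti-IL-6R, 24.4 and 26.5 in shMCT-1 + IgG, and 15 and 12.4 in the combined group (departure -1.13 ± 0.18 on the log2 scale, unadjusted p = 8.59e-05, adjusted p = 0.465). Its level was highest in shMCT-1 + IgG, and its combined log2 fold change was 0.06 ± 0.13 (adjusted p = 0.703). The next was mt-Co3, with a departure of -1.54 ± 0.25 (adjusted p = 0.465), and the processed pseudogene Gm10335, at 23.7 and 25.3, 30.5 and 29.4, 33.2 and 28.7, and 25.5 and 26.3 CPM, departed by -0.55 ± 0.14 (adjusted p = 1). Aldoc, a brain-type aldolase, stood at 0.213 and 0.124 CPM in control, 0.41 and 0.475 in scramble + anti-IL-6R, 14.3 and 14.8 in shMCT-1 + IgG, and 11.5 and 11.4 in the combined group (combined log2 fold change 6.02 ± 0.25, adjusted p = 2.27e-07). Gm37795 stood at 6.74 and 5.55, 7.14 and 6.62, 0.649 and 1.08, and 0.257 and 0.276 CPM in the same order (-4.50 ± 0.33, adjusted p = 6.93e-06). 3110039I08Rik, annotated as a processed transcript without coding sequence, stood at 103 and 93.4, 106 and 148, 29 and 35.7, and 19.8 and 18.8 CPM (-2.35 ± 0.17, adjusted p = 5.88e-06). Aldoc, Gm37795 and 3110039I08Rik stood lower in the combined libraries than in the shMCT-1 + IgG libraries, without overlap. Their departures from additivity were -1.69 ± 0.42, -1.85 ± 0.47 and -1.12 ± 0.22 in that order. The smallest adjusted p for the departure was 0.465.

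Genes that changed were not spread evenly over the chromosomes. On chromosome 2, 53.8% of 965 tested genes were lower and 10.9% higher, with a median log2 fold change of -0.384. On chromosome 12 the median was -0.368 with 53.6% of 461 genes lower, and on chromosome 13 it was -0.436 with 52.6% of 506 genes lower. The highest medians were 0.206 on chromosome 1, 0.185 on chromosome 14, 0.17 on chromosome 11 and 0.163 on chromosome 15. In shMCT-1 alone the medians of chromosomes 2, 12 and 13 were -0.365, -0.346 and -0.431. Il6st lies on chromosome 13, E2f6 and Dnajb9 on chromosome 12, and Notch1 and Mcts2 on chromosome 2, and with scaling within chromosomes their calls held, with log2 fold changes of -1.04 for Il6st, -0.86 for Dnajb9, -1.31 for Notch1 and -0.81 for Mcts2; E2f6 had 0 combined counts under any scaling. After the length and GC correction the medians of chromosomes 2, 12 and 13 were -0.361, -0.268 and -0.337.

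**Figure D5:**
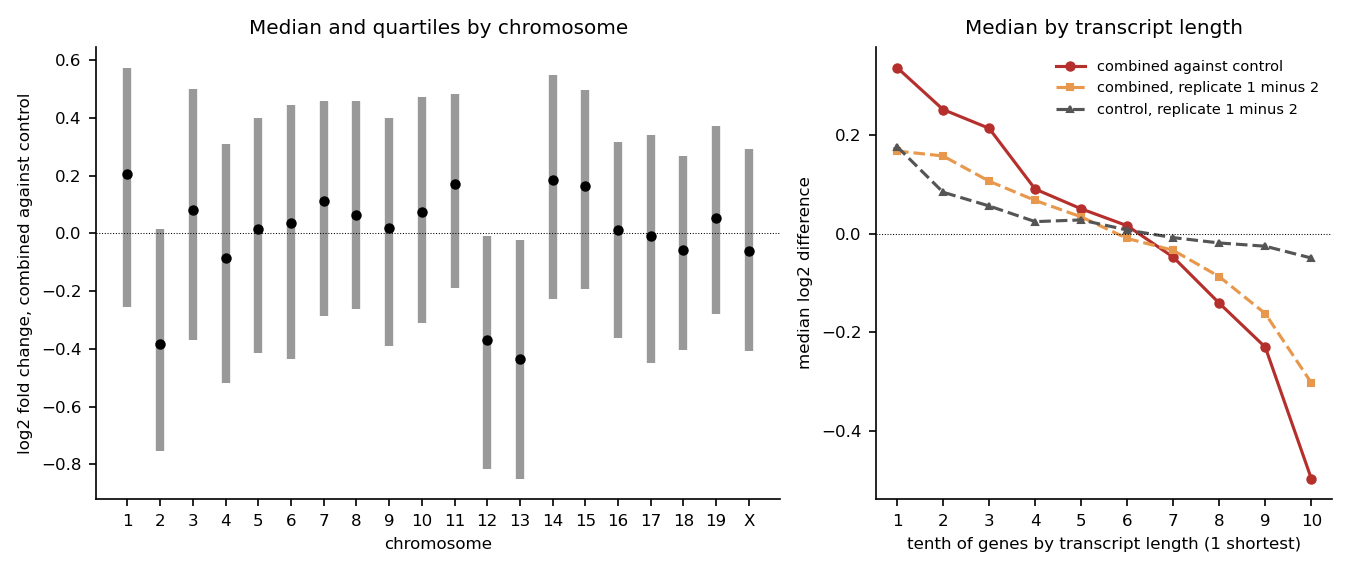
Left, median (point) and quartiles (bar) of the log2 fold change of shMCT-1 + anti-IL-6R over scramble + IgG by chromosome, with chromosomes 2, 12 and 13 at -0.384, -0.368 and -0.436. Right, median log2 difference by length class (10 classes) for the combined comparison, which runs from 0.336 to -0.496, beside the differences between replicates 1 and 2 of the combined group, from 0.167 to -0.302, and of control, from 0.176 to -0.0496.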

How the data were processed

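RNA of 4T1 cells was sequenced as 8 poly(A)-selected libraries, and the 4 libraries of shMCT-1 + anti-IL-6R and scramble + IgG form the comparison. The authors trimmed reads with cutadapt 1.18, aligned them to mm10 (GENCODE M19) with STAR 2.7.0d and deposited RSEM expected counts (estimated counts) per gene, 1 library per file, with no pooling. RSEM divides reads that fit several genes by estimation, so paralogs share uncertainty.

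Expected counts were rounded to whole numbers. Testing was limited to genes whose CPM passed 1 in 2 or more of these 4 libraries, and used edgeR 4.0.16 (R 4.3.3), the quasi-likelihood test on all 8 libraries with 4 group means and TMM scaling, with Benjamini-Hochberg adjustment over all genes tested and a threshold of 0.05; the SE is the absolute log2 fold change over the square root of F. DESeq2 1.42.0, edgeR's exact test, RLE scaling, other filters, a fit to the 2 groups, scaling within chromosomes, a replicate block and leaving out each library were alternatives. The script was tested on simulated data. Fold changes of genes at or under 3 counts in a group come from counts, as CPM ratios with exact counting intervals or bounds. Coordinates are of GENCODE M21 (GRCm38), where 54495 of 54532 gene identifiers matched; promoters are RefSeq's.

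Named genes were the axis of the study's title, the genes the study checked by RT-PCR, the 12 largest changes each way (protein coding, at least 5 CPM in the higher group, no overlap), the first tested and 4 largest called genes of each list, and the 6 smallest p for departure from additivity. The last were taken among genes with a mean of at least 5 CPM in some group. Members and lists were chosen with earlier results of these data known. No batch is named in the labels. Replicate numbers did not pair the samples (correlations of deviations between groups -0.0712 to 0.101). Some genes that this rule names are not reported here.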

Additional observations from a re-analysis of the deposited data

How the results depend on the processing

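The combined comparison called 5639 genes when only its own 4 libraries were fitted and 7999 without a filter on low counts; leaving out each library in turn gave 5648 (without shMCT-1 + anti-IL-6R replicate 1) to 7083 (without its replicate 2), and DESeq2 gave 6628, edgeR's exact test 5894, RLE scaling 7017 and chromosome scaling 6674. The replicate block called 7084 genes, of which 6923 were shared with the 7010, and moved no other reported count by over 1.5 times and no call of a named gene. Genes past 2-fold numbered 2971 without the filter. Of the counts of list members called higher or lower, 12 moved by over 1.5 times in the exact test. With only the 4 libraries fitted 12 moved, and on leaving out a library 1 to 7. Anti-IL-6R alone gave 8 genes in the exact test, 64 without the filter and 0 to 17 on leaving out libraries (17 without scramble + IgG replicate 1, 1 without shMCT-1 + IgG replicate 1); the antibody added to shMCT-1 gave 8 in DESeq2, 13 in the exact test, 133 without the filter and 0 or, with replicate 2 of the combined group left out, 1; the departure from additivity gave 5 in DESeq2, 97 without the filter and 0 to 8 (8 without scramble + IgG replicate 1, 1 without shMCT-1 + anti-IL-6R replicate 2). Chromosome 1 had a median of 0 without the filter, 0.177 with filterByExpr, 0.311 after the length and GC correction and 0.191 to 0.224 on leaving out libraries; chromosome 2 had -0.363, -0.373 and -0.361 under the same settings and -0.393 to -0.367; chromosome 11 had 0.0275 without the filter and 0.123 corrected; chromosome 12 had -0.306 and -0.268; chromosome 13 had -0.337 corrected and -0.497 to -0.375; chromosome 14 had 0 without the filter, 0.193 with the filter on 8 libraries, 0.253 corrected and 0.167 to 0.185; chromosome 15 had 0 without the filter and the mitochondrial genome -0.99 corrected. The sign turned in genes without a call: Stat3 (0.0903 corrected; -0.21 to 0.026 on leaving out libraries), Cdh1 (-0.26 to 0.0418), Yap1 (-0.04215 to 0.06142), mt-Nd3 (-0.5873 to 1.109), Pdgfra (0.1144 corrected) and Cd14 (-0.1067 corrected), and in Tyro3 (0.2563 with chromosome scaling), Gm10335 (-0.02792 with chromosome scaling, -0.2951 corrected) and Srp54b (-0.07687 to 0.1932). Srp54b was called with chromosome scaling (0.42) and Yap1 after the correction (0.29), which turned 50 of the 5304 shared calls. Camsap1 lost its call with chromosome scaling (-0.19). The causes were not tested. With 2 libraries in each group and 19839255 counts in the shallowest, genes of the level of Ppbp or Cxcr2 were out of reach.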
